A study of Mus musculus with 8 samples.

Results

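The genes described here act at the surface of muscle precursor cells when they join into fibres and afterwards in the membrane of the fibre. They are the 7 genes Mymk, Mymx, Cdh15, Cdh2, Cav3, Dysf and Myof, taken by symbol from the probe annotation of the array. All 7 were measured, each by 1 probe set, among 19938 genes represented on the arrays. The probe sets are 10481175 for Mymk (Entrez gene 66139), 10451142 for Mymx (653016), 10576175 for Cdh15 (12555), 10457644 for Cdh2 (12558), 10540533 for Cav3 (12391), 10539517 for Dysf (26903) and 10467258 for Myof (226101). RNA came from primary myoblasts, the dividing progeny of satellite cells, the stem cells of muscle, isolated from the gastrocnemius of C57bl/6 mice 2 to 3 weeks of age and kept on Matrigel in a proliferation medium. The groups are 4 arrays labelled WT and 4 labelled Runx1f/f, a genotype in which the gene of the transcription factor Runx1 carries floxed alleles and which the labels also call KO. The labels name neither a Cre driver nor the floxed part, and say nothing on pooling. The labels call the arrays biological replicates 1 to 4 of each genotype, without saying whether each came from its own animal or culture, so spreads describe these samples and may be technical.

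Myoblasts fuse in steps. Cadherins on facing cells bind each other and hold the membranes together. Myomaker, the product of Mymk, then allows the outer membrane layers to mix, and the microprotein myomixer (also called myomerger or minion), the product of Mymx, opens the fusion pore. Cadherin 15 (M-cadherin) is the cadherin most typical of myogenic cells, whereas cadherin 2 (N-cadherin) is shared with many other tissues. Caveolin 3, the product of Cav3, builds caveolae, the small membrane pits of muscle fibres. Dysferlin and myoferlin, the products of Dysf and Myof, are large membrane proteins with several C2 domains. Dysferlin is known for the repair of torn fibre membranes, and myoferlin for fusion and membrane traffic in myoblasts.

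The promoters of the members with the widest differences between arrays, Cav3 and Dysf, and of the member with the narrowest, Myof, are shown because the title of the series names Runx1, MyoD and c-Jun, factors that bind short DNA motifs. The windows are those of RefSeq on build GRCm38.p6, 250 bases before to 50 after a transcription start, and cover 4 of the 7 members in 5 windows (Cdh15 has the fifth window, and Mymk, Mymx and Cdh2 have no entry in the table used). Capitals mark E-boxes, the hexamer CANNTG bound by MyoD and related factors. The windows, all 5′ to 3′ on the strand of the gene, are chr6:112459255-112459554 (plus strand) for Cav3, chr6:84008348-84008647 and chr6:84019136-84019435 (plus strand) for the 2 start sites of Dysf, and chr19:38043528-38043827 (minus strand) for Myof.
Cav3: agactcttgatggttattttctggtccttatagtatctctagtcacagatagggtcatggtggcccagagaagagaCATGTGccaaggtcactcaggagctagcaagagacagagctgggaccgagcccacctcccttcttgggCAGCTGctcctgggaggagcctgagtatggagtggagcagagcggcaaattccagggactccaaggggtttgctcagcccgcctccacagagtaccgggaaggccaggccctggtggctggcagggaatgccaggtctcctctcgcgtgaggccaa
Dysf, start site 1: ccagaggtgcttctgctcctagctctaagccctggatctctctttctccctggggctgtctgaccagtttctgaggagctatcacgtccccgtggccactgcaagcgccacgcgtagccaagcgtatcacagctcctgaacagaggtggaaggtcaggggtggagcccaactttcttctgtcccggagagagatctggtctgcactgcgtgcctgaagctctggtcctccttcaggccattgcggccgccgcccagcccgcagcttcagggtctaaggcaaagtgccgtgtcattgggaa
Dysf, start site 2: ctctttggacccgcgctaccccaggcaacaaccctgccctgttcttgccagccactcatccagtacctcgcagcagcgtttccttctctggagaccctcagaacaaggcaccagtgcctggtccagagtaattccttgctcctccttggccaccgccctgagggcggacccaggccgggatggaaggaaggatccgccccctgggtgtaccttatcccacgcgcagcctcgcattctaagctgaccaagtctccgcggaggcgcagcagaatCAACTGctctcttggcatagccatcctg
Myof: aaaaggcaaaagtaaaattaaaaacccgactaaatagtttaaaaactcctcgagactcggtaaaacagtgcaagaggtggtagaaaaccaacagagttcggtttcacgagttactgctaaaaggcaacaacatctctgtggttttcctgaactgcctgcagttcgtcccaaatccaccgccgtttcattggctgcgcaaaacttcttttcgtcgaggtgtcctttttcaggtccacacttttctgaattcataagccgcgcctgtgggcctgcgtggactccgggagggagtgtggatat

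The Cav3 window held 2 E-boxes, CATGTG and CAGCTG. The second is the form that MyoD prefers. Of all 32851 windows in the table, 72.3% held an E-box and 16.3% held CAGCTG. The windows of Dysf held 0 E-boxes at start site 1 and 1 (CAACTG) at start site 2, the Myof window held 0, and the Cdh15 window (chr8:122848124-122848423, plus strand) held 4. The Runx motif TGTGGT, searched on both strands, occurred 1 time each in the Cdh15 and Myof windows and 0 times in those of Cav3 and Dysf, against 16.8% of all windows. Its variant TGCGGT, present in 6.45% of all windows, and the AP-1 motif TGANTCA, bound by Jun and Fos proteins and present in 7.81%, occurred in 0 of the 5 windows. The Tead motif CATTCC, present in 14.7%, occurred 1 time, in Cav3. E-box counts include CAGCTG, and matches of different motifs were allowed to overlap. A match is a run of letters and shows no binding.

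Values are log2 intensities after RMA, so a difference of 1 is a doubling of signal, and levels of different genes are not compared because each probe set has its own response. The 8 arrays had medians of 4.39 to 4.41 over 35399 probe sets and correlated at 0.9879 to 0.9972. Across all rows the 4 columns labelled WT, Runx1f/f 1 and 2, and Runx1f/f 3 and 4 have the same mean to within 7.5e-05. For every gene, therefore, Runx1f/f 1 and 2 lie equally far above and below that mean, as do Runx1f/f 3 and 4, and the values are not independent. How this equality arose was not tested. Runx1 itself averaged 9.67 under both labels, with SDs of 0.55 (WT, n = 4) and 0.32 (Runx1f/f, n = 4). The equality of the columns fixes these equal means in advance, so the level of the targeted gene is no check of the labels. Whether its probe set lies inside the floxed part is unknown here as well.

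The labelled genotypes had equal means for every member, as the equality of the columns fixes in advance. Of 19938 genes, 0 (0%) passed in limma at an adjusted p under 0.05, 0 had an unadjusted p under 0.05, and 0 of the 7 members passed. Cav3 averaged 8.88 under both labels, with SDs of 0.59 (WT, n = 4) and 0.84 (Runx1f/f, n = 4), and Dysf 7.45, with SDs of 0.53 and 0.61. The standard error of the genotype difference in limma ran from 0.052 for Myof to 0.441 for Cav3. With the replicate number as a block it ran from 0.0417 for Myof to 0.153 for Dysf, with 0.146 for Cav3, and again 0 members passed. The means of Mymk, Mymx, Cdh15, Cdh2 and Myof were likewise the same in the 2 labels, at 11.55, 7.34, 10.13, 10.01 and 9.98. The spread was less alike. Cdh15 had an SD of 0.22 under WT and 0.08 under Runx1f/f, and Mymk one of 0.14 and 0.23. Differences between these SDs were not tested. With equal means by construction, an effect of Runx1 on these genes cannot be measured from these values.

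The members did differ between arrays within each label, and along the replicate numbers. The arrays numbered 2 and 3 of both labels are set here against those numbered 1 and 4. This division was seen in these same values beforehand, as the leading direction of variation over all genes, so it is given as a description with no test. Its meaning is not given in the labels. With it, 5 of the 7 members had a higher mean in replicates 2 and 3 and 2 a lower one. In 4 members (Mymx, Cdh15, Cav3 and Dysf) all 4 arrays numbered 2 and 3 lay above all 4 numbered 1 and 4, and 9.87% of all genes did so. In 1 member, Cdh2, all 4 lay below, as in 10.5% of all genes. Mymk and Myof overlapped. With arrays centred on their medians these shares of all genes became 7.74% and 14.2%, and the same 5 members were again free of overlap. Runx1 followed the same division: it read 9.15, 9.99, 10.27 and 9.25 across WT replicates 1 to 4, then 9.35, 9.98, 9.89 and 9.44 across Runx1f/f replicates 1 to 4. Its sets did not overlap and differed by 0.74.

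**Figure D1:**
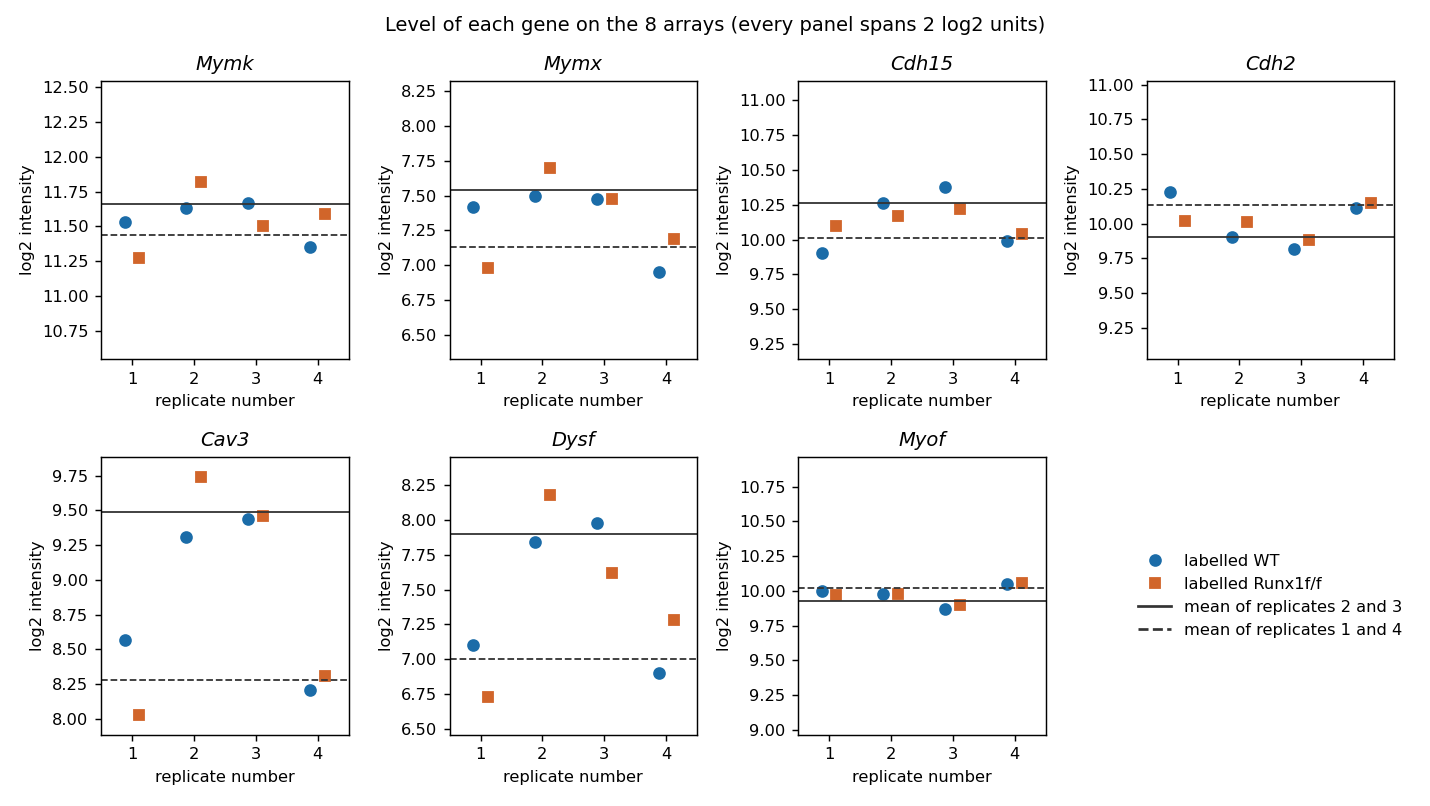
Log2 intensity (vertical axis, every panel spanning 2 units) of each of the 7 genes by replicate number (horizontal axis), with circles for arrays labelled WT, squares for arrays labelled Runx1f/f, and lines at the means of the 4 arrays numbered 2 and 3 (solid) and the 4 numbered 1 and 4 (dashed). Cav3 and Dysf stand far apart between the sets, at means of 9.49 against 8.28 and 7.90 against 7.0, while Myof stays between 9.87 and 10.06 on all 8 arrays.

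Of the genes of the fusion proteins, Mymx differed without overlap and Mymk with it. Mymk read 11.53, 11.63, 11.67 and 11.35 across WT replicates 1 to 4, then 11.27, 11.82, 11.50 and 11.59 across Runx1f/f replicates 1 to 4. Its highest array was Runx1f/f 2 and its lowest Runx1f/f 1, but Runx1f/f 4 read above Runx1f/f 3, so the sets overlapped. The mean was 11.66 ± 0.13 (SD, n = 4) in replicates 2 and 3 and 11.44 ± 0.15 (SD, n = 4) in replicates 1 and 4, a difference of 0.22. That is a 1.16-fold difference. Without Runx1f/f 3 the sets of Mymk no longer overlapped.

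Mymx read 7.42, 7.50, 7.48 and 6.95 across WT replicates 1 to 4, then 6.98, 7.70, 7.48 and 7.19 across Runx1f/f replicates 1 to 4. Replicates 2 and 3 thus spanned 7.48 to 7.70 and replicates 1 and 4 spanned 6.95 to 7.42, a gap of 0.059 between the sets. The means were 7.54 ± 0.11 and 7.13 ± 0.22 (SD, n = 4 each), a difference of 0.40 or 1.32-fold. WT 1 lay close to the replicates 2 and 3 of its own label, while WT 4 and Runx1f/f 1 were lowest. Mymx and Mymk, which act in the same fusion event, lay on the same side of their own means in 5 of 8 arrays.

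The cadherins went in opposite directions. Cdh15 read 9.90, 10.26, 10.38 and 9.99 across WT replicates 1 to 4, then 10.10, 10.17, 10.22 and 10.04 across Runx1f/f replicates 1 to 4. Replicates 2 and 3 averaged 10.26 ± 0.09 and replicates 1 and 4 averaged 10.01 ± 0.08 (SD, n = 4 each), a difference of 0.25 or 1.19-fold, with a gap of 0.065 between the sets. The difference was 0.37 among the arrays labelled WT and 0.12 among those labelled Runx1f/f. Whether it differs between the labels was not tested.

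Cdh2 read 10.23, 9.90, 9.82 and 10.11 across WT replicates 1 to 4, then 10.02, 10.01, 9.88 and 10.15 across Runx1f/f replicates 1 to 4. Here the sets were free of overlap by only 0.005, between Runx1f/f 2 at 10.01 and Runx1f/f 1 at 10.02. The means were 9.90 ± 0.08 in replicates 2 and 3 and 10.13 ± 0.09 in replicates 1 and 4 (SD, n = 4 each), a difference of -0.23. Cdh2 and Cdh15 lay on opposite sides of their own means in every array, with 0 of 8 on the same side. In Runx1f/f 1 and 2 Cdh2 lay almost at its mean, and the mirrored Runx1f/f values tie these sides to each other. The sizes of the cadherin differences, 0.25 and -0.23, were nearly equal.

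Cav3 had the widest spread of the 7. It read 8.57, 9.31, 9.44 and 8.21 across WT replicates 1 to 4, then 8.03, 9.74, 9.46 and 8.31 across Runx1f/f replicates 1 to 4. In order, Runx1f/f 2 was highest, followed by Runx1f/f 3, WT 3 and WT 2. After a gap of 0.748 came WT 1, Runx1f/f 4, WT 4 and, lowest, Runx1f/f 1. Within the upper set Runx1f/f 3 and WT 3 differed by less than the SD of 0.18, as did Runx1f/f 4 and WT 4 within the lower set, with an SD of 0.23. The means were 9.49 ± 0.18 and 8.28 ± 0.23 (SD, n = 4 each), a difference of 1.21 or 2.31-fold. The SD of Cav3 over the 8 arrays, 0.67, was larger than that of 99.2% of all genes.

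The ferlins parted. Dysf read 7.10, 7.84, 7.98 and 6.90 across WT replicates 1 to 4, then 6.73, 8.18, 7.62 and 7.28 across Runx1f/f replicates 1 to 4. The sets averaged 7.90 ± 0.23 and 7.0 ± 0.24 (SD, n = 4 each), a difference of 0.90 or 1.87-fold, with a gap of 0.343 between Runx1f/f 3 and Runx1f/f 4. Its highest array was again Runx1f/f 2 and its lowest Runx1f/f 1. This pairing of extremes was shared with Mymk and Cav3 and follows in part from the mirrored values of Runx1f/f 1 and 2.

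Myof, given to 3 decimals because its arrays lie so close, read 10.004, 9.979, 9.873 and 10.052 across WT replicates 1 to 4, then 9.973, 9.981, 9.898 and 10.056 across Runx1f/f replicates 1 to 4. It was the steadiest member, with an SD of 0.06 over the 8 arrays, below the median of 0.084 over all genes. The sets overlapped, at 9.93 ± 0.06 and 10.02 ± 0.04 (SD, n = 4 each), a difference of -0.09. Without Runx1f/f 1 the overlap disappeared and the count of members lying below rose from 1 to 2. The share of all genes lying below rose from 10.5% to 11.7%. Dysf and Myof, close relatives in sequence, lay on the same side of their means in 3 of 8 arrays. In WT 2, Runx1f/f 1 and Runx1f/f 2 Myof lay almost at its mean of 9.98, so its side there rests on little.

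Across the 7 members the median difference was 0.25, against -0.006 over all genes, and the median absolute difference 0.25, against 0.06. The median SD over the arrays was 0.17, against 0.084 over all genes and 0.115 over the 8949 genes with a mean of at least 5, a level that all 7 members exceeded. Among those brighter genes 14.6% lay above and 16.9% below without overlap. Only Cav3 and Dysf differed by more than 1.5-fold, and 2.32% of all genes did so upward and 0.838% downward.

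The direction was the same in both labels for all 7 members. For Mymx, Cdh15, Cav3, Dysf and Cdh2, whose sets do not overlap, this is fixed in advance. Only Mymk and Myof could have differed. Among arrays labelled WT the differences ran from -0.32 for Cdh2 to 0.99 for Cav3, and among arrays labelled Runx1f/f from -0.14 for Cdh2 to 1.43 for Cav3. The source numbers in the labels, which come without an explanation, form 3 runs, and only the run 139 to 142 holds arrays of both sets (replicates 1 and 2 of both labels). Within it replicate 2 minus 1 was 1.23 for Cav3, 1.09 for Dysf, 0.40 for Mymx, 0.32 for Mymk, 0.21 for Cdh15, -0.17 for Cdh2 and -0.01 for Myof. Replicates 3 and 4 lie in different runs, so that replicate number and run cannot be told apart there.

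**Figure D2:**
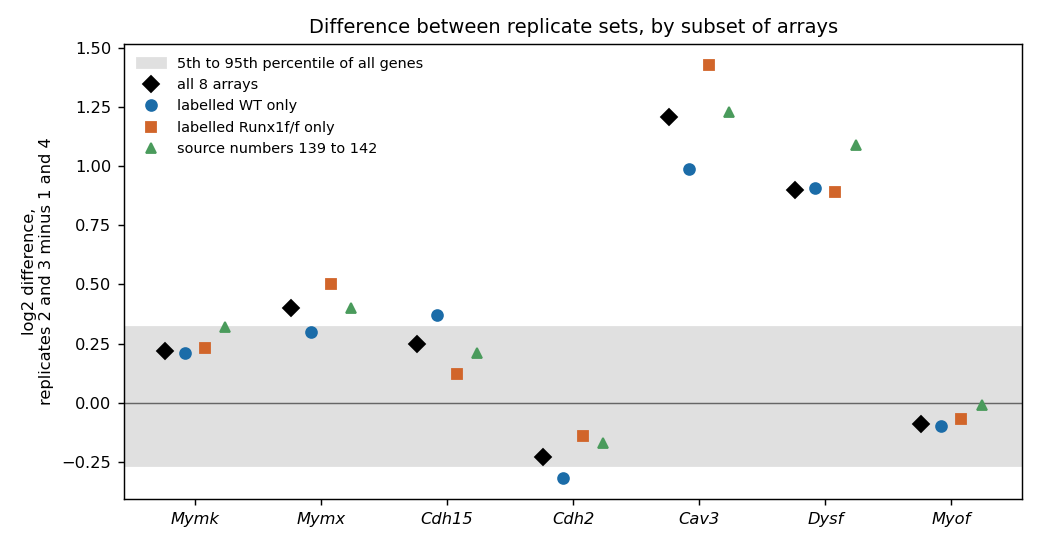
Log2 difference, replicates 2 and 3 minus 1 and 4 (vertical axis), for each gene, over all 8 arrays (diamonds), arrays labelled WT (circles), arrays labelled Runx1f/f (squares) and source numbers 139 to 142 (triangles), with a grey band from the 5th to the 95th percentile of all genes (-0.27 to 0.32). The band holds the differences of all genes over all 8 arrays, so the subset readings have no band of their own. Cav3 and Dysf lie above this band in every subset and Mymx in 3 of the 4 readings. Mymk, Cdh15, Cdh2 and Myof stay in or near it.

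Members differed in how closely they followed each other. Cav3, Dysf and Cdh15 were above their own means in the same 4 arrays, those numbered 2 and 3, although the size of the swing differed. Cdh2 was above its mean in exactly the other 4. The closest pair by root mean square difference of the mean-centred values over the 8 arrays was Cdh2 and Myof, at 0.092. The most distant was Cdh2 and Cav3, at 0.728. This measure is not scaled to the spread of each gene, so members that vary little come out close. Cdh2 and Myof, with SDs of 0.15 and 0.06, lay on the same side of their means in 5 of 8 arrays. Cav3 and Dysf did so in 8 of 8. Every such count of sides includes the mirrored Runx1f/f values, so the 8 arrays are not 8 separate readings. Cav3 and Dysf were 0.218 apart, the difference lying mostly in Runx1f/f 3 and 4, where Dysf deviated less.

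The same measure was used to find genes with a like pattern for the members with an SD of at least 0.3, Cav3 and Dysf, among 1027 other named genes at or above that SD. The closest to Cav3 were Hspb2, a small heat shock protein gene of muscle, at 0.092, Art1, which encodes an ADP-ribosyltransferase of the muscle surface, at 0.095, and Myoz2, the Z-disc protein calsarcin 1, at 0.121. Hspb2 read 7.59, 8.39, 8.47 and 7.27 across WT replicates 1 to 4, then 7.22, 8.63, 8.40 and 7.45 across Runx1f/f replicates 1 to 4, close to Cav3 in shape. The closest to Dysf were Ppfia4, a liprin gene, at 0.048, Srpk3, a muscle protein kinase, at 0.059, and Tnnc2, fast skeletal troponin C, at 0.063. Tnnc2 read 9.72, 10.28, 10.46 and 9.44 across WT replicates 1 to 4, then 9.26, 10.69, 10.24 and 9.72 across Runx1f/f replicates 1 to 4. The 6 genes share the arrays with the members, so the likeness is a description only.

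**Figure D3:**
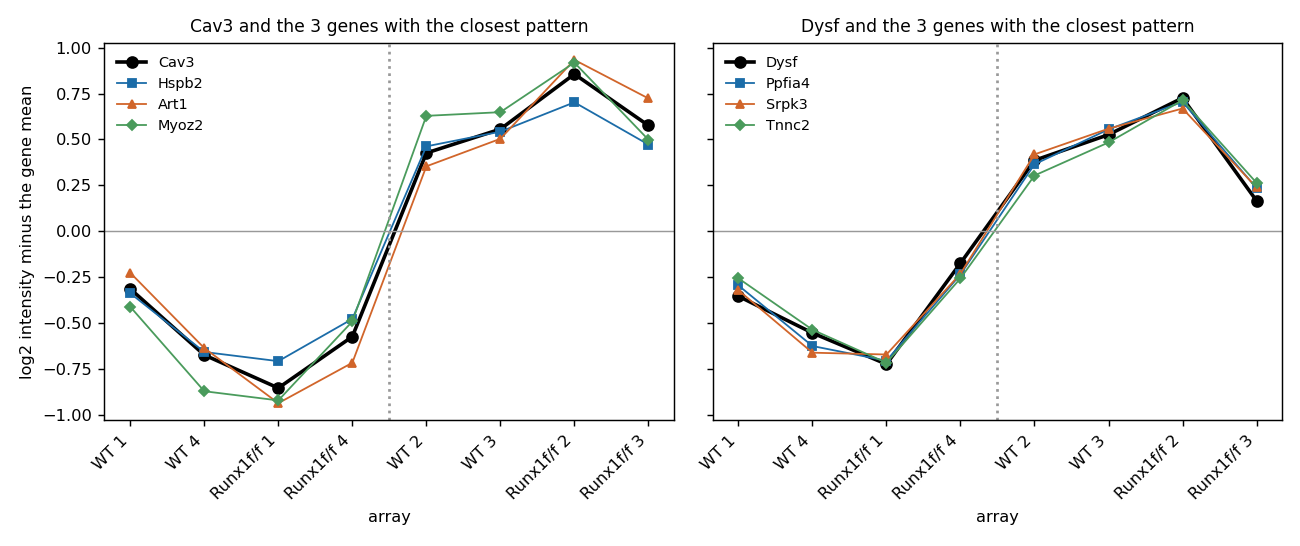
Log2 intensity minus the mean of the gene (vertical axis) on the 8 arrays (horizontal axis, replicates 1 and 4 left of the dotted line, 2 and 3 right of it) for Cav3 with Hspb2, Art1 and Myoz2 and for Dysf with Ppfia4, Srpk3 and Tnnc2. In both panels every gene lies below 0 on the left and above 0 on the right, and Runx1f/f 1 and Runx1f/f 2 are the extremes or close to them.

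Genes of muscle differentiation differed in the same direction as Cav3 and Dysf. Of 14 listed genes, 12 lay above without overlap in replicates 2 and 3 and 0 below, against 9.87% and 10.5% of all genes and 14.6% and 16.9% of those with a mean of at least 5. The median difference was 0.69 (11 genes lay above with arrays centred on their medians). Mef2c, a transcription factor of differentiation, was at 10.01 ± 0.32 against 8.72 ± 0.36 (SD, n = 4 each), and Myh8, perinatal myosin, at 10.90 ± 0.27 against 9.71 ± 0.30. The mean level of the list was 10.52 to 10.92 in replicates 2 and 3 and 9.74 to 10.16 in replicates 1 and 4. Its part in the differences of the fusion and membrane genes was not tested. Fewer differentiated cells and less RNA per cell cannot be told apart in bulk RNA.

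Other caveolar and repair genes mostly overlapped between the sets, in 19 of 31. Of 33 listed, 31 were measured, of which 10 lay above (32.3%) and 2 below (6.45%), with a median difference of 0.06. Among all genes 9.87% lay above and 10.5% below, and among those with a mean of at least 5, 14.6% and 16.9%. Syt7, 1 of the 2 below, read under the median of every array. The largest positive differences were in Trim72, which encodes the repair protein MG53, at 9.62 ± 0.26 against 8.52 ± 0.35, and in Capn1, the protease calpain 1, at 8.61 ± 0.14 against 7.88 ± 0.09 (SD, n = 4 each). The largest negative differences were in S100a11 (-0.25), whose sets overlapped, and Pdcd6ip, the endosomal adaptor Alix (-0.17), whose sets did not.

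The caveola genes are named here after their values were seen. Cav1, the caveolin of most other cells, read 7.39, 8.78, 9.0 and 8.18 across WT replicates 1 to 4, then 8.24, 8.43, 8.54 and 8.13 across Runx1f/f replicates 1 to 4. Its difference was 0.70, and its order of arrays was not that of Cav3, with WT 1 lowest and WT 3 highest. The coat genes Cavin1, Cavin2 and Cavin3 had differences of 0.32, 0.70 and 0.37 and no overlap. Cavin4, the muscle cavin, differed by 0.43 with overlap, Ehd2, which stabilises caveolae, by 0.65 without, and Cav2 by -0.09 with overlap. The ferlin relatives Otof, Fer1l4, Fer1l5 and Fer1l6 read between 3.25 and 3.66 on every array, below the array medians.

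Adhesion and recognition genes lay on both sides. Of 23 measured, 4 lay above and 6 below without overlap (17.4% and 26.1%). Among all genes 9.87% lay above and 10.5% below, and among those with a mean of at least 5, 14.6% and 16.9%. The median difference of 0.02 became -0.01 with arrays centred on their medians. Itga9, 1 of the 4 above, read under the median of every array. Adam12, a membrane protease of fusing myoblasts, read 4.23, 4.79, 5.44 and 4.04 across WT replicates 1 to 4, then 3.80, 5.45, 5.56 and 3.69 across Runx1f/f replicates 1 to 4. Its values in replicates 1 and 4 were all below the array medians of 4.39 to 4.41, so the low side may not be above background and no fold is given. Mcam, an adhesion molecule, followed with 0.66. On the other side were Kirrel, which encodes a relative of the proteins that recognise fusion partners in flies, at 7.45 ± 0.20 against 8.05 ± 0.17 (SD, n = 4 each), and Boc, a receptor that binds cadherins in myoblasts, with -0.52 and a mean of 4.19 in replicates 2 and 3, below the array medians. Cdon, the partner of Boc, named after its value was seen, had a difference of -0.42.

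Actin regulators drive the membranes of fusing cells together. Of 22 measured, 3 lay above and 4 below (13.6% and 18.2%), near the 14.6% and 16.9% among genes with a mean of at least 5. Among all genes the shares were 9.87% and 10.5%. The median difference was 0.03. Elmo1, 1 of the 3 above, read under the median of every array. Sh3pxd2a, the podosome scaffold Tks5, stood out at 8.20 ± 0.20 against 7.28 ± 0.17 (SD, n = 4 each), followed by Iqsec1, an Arf6 exchange factor, with 0.26 and overlapping sets. Dock5 (-0.26) and Elmo2 (-0.17), parts of Rac exchange complexes, had the largest negative differences, the first with overlap.

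Phosphatidylserine, a lipid turned outward on fusing cells, is read by several receptors. Of 13 measured genes of its exposure and recognition, 0 lay above and 6 below (46.2%), with a median difference of -0.10. Among all genes 9.87% lay above and 10.5% below, and among those with a mean of at least 5, 14.6% and 16.9%. With quantile normalization applied again 1 of the 13 lay above and 7 below. Stab1 and Xkr8, both counted as below, read under the median of every array, with differences of -0.04 and -0.11. Axl, a receptor kinase, was at 8.86 ± 0.12 against 9.43 ± 0.12 (SD, n = 4 each) and its ligand Gas6 at 7.54 ± 0.26 against 8.05 ± 0.28. The receptor kinase Mertk differed by 0.32 with overlap. Adgrb3, a recognition receptor of the Bai family, stayed at 3.11 in both sets.

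Signals that act on fusion were measured in 22 of 23 listed genes. Of these 3 lay above and 1 below (13.6% and 4.55%), and the median difference was 0.00. The shares were 9.87% and 10.5% among all genes and 14.6% and 16.9% among those with a mean of at least 5. Mstn, the inhibitor of muscle growth myostatin, was at 9.12 ± 0.29 against 8.23 ± 0.32, and Igf2 at 11.65 ± 0.18 against 11.12 ± 0.19 (SD, n = 4 each). Fst, the myostatin antagonist follistatin, differed by -0.69 with overlapping sets, and the interleukin receptor gene Il4ra by -0.45 without.

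**Figure D4:**
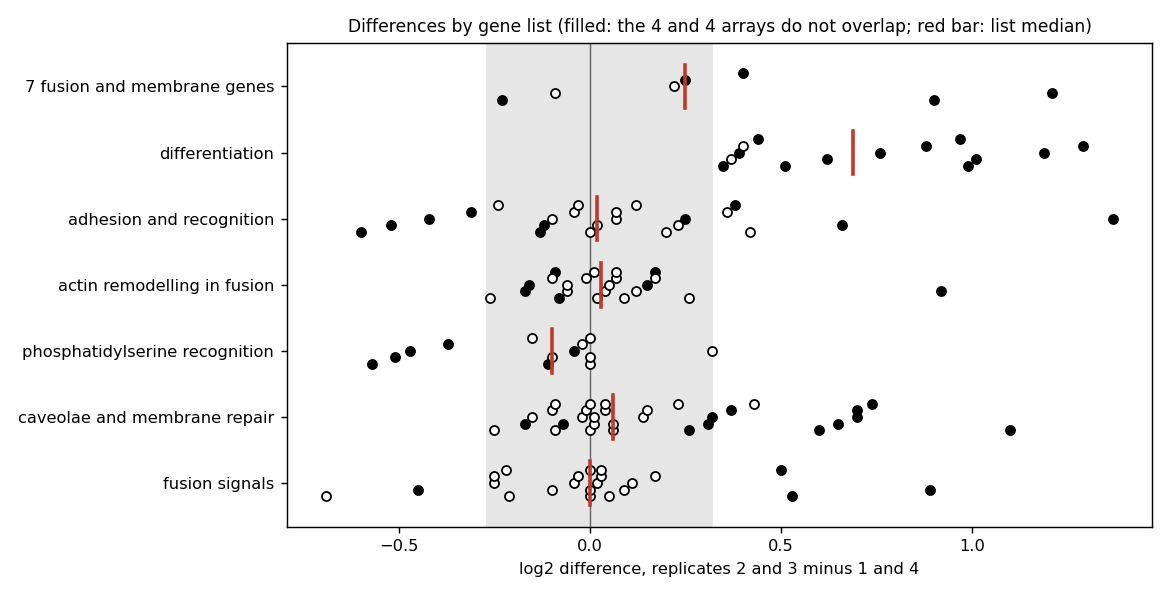
Log2 difference, replicates 2 and 3 minus 1 and 4 (horizontal axis), of each measured gene in the 7 fusion and membrane genes and in 6 gene lists (rows), filled where the 4 and 4 arrays do not overlap, with a red bar at each list median and a grey band from the 5th to the 95th percentile of all genes. The differentiation list lies wholly to the right of 0, whereas the phosphatidylserine list has its 6 filled points to the left. Of those 6, Stab1 and Xkr8 read under the array medians.

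The cells carried the markers of myoblasts. All 6 listed markers (Myod1, Myf5, Pax7, Des, Myog and Itga7) were above the array medians, with a mean level of 9.85 to 9.91 in replicates 2 and 3 and 9.87 to 9.94 in replicates 1 and 4. Within the list Myog differed by 0.76 and Des by 0.18, whereas Myf5 differed by -0.89 and Myod1 by -0.26. Markers of other cells were mostly dim. All 5 endothelial, 3 adipocyte and 4 Schwann and neural markers lay below the median of every array, as did 4 of 5 leukocyte and 3 of 5 fibroblast markers. The smooth muscle list, with Acta2, Rgs5 and Tagln above the medians, had mean levels of 6.44 to 6.85 in replicates 2 and 3 and 6.58 to 6.99 in replicates 1 and 4, with 0 of 5 free of overlap.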

How the data were processed

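RNA (200 ng per array, per the labels' protocols) was hybridised to Affymetrix MoGene 1.0 ST arrays, a single-colour design. The deposited values are log2 intensities, 1 per probe set and array, and the submitters' processing notes name RMA and Partek without versions. Any other step is unknown here. No filter on dim genes was applied.

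Columns were matched to samples by accession. Of 35399 rows, 21789 had 1 gene symbol in the platform annotation, 1621 had several and 11989 were not annotated. Gene identifiers of 21698 of them matched RefSeq (GRCm38.p6), which changed 0 symbols. The row with the highest mean stood for each of 19938 genes.

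The labels WT and Runx1f/f were compared by limma (version 3.58.1, R 4.3.3, two-sided, Benjamini-Hochberg, threshold 0.05), tested on simulated data. Replicates 2 and 3 were set against 1 and 4 by values, SDs and overlap only, with python 3.11.15. Members, lists and tests were chosen with earlier results of these data known. From each list the 2 largest differences each way were named. For members with an SD of at least 0.3, the 3 genes of most like pattern were named. Alternatives were blocks for replicate number and source run, median centring, repeated quantile normalization, a minimum mean of 5, all rows, a 1.5-fold minimum, subsets of arrays, and each array left out. The main limma fit had no block, and the replicate number entered as a block only in an alternative. Same-numbered arrays correlated at 0.39, 0.46, 0.60 and 0.57 in their deviations from the genotype means, each above 0.1. Only 4 of 8 arrays correlated best with their own number. The mirrored Runx1f/f values make these correlations depend on each other. The number of arrays limits the precision.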

Additional observations from a re-analysis of the deposited data

Results flagged for a closer look

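Mymx in WT 4 read 6.95, while WT 1, 2 and 3 read 7.42, 7.50 and 7.48, a gap large for the range of those 4 values. The check covered 16 sets of 4 values, those of the 7 members and of Runx1 in each label, and chance marks about 5% of sets of independent values. In the Runx1f/f sets the mirrored values leave no room for such a mark. With any 1 array left out, WT 4 included, the Mymx difference between replicates 2 and 3 and replicates 1 and 4 was 0.34 to 0.50. The Mymx sets do not overlap, so the sign of this difference could not change.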

How the results depend on the processing

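The genotype count of 0 genes held with the replicate number as a block (0), with the source run as a block, under both scalings, with dim genes removed, with all rows and with each array left out. The equal means fix most of these counts in advance, so they say nothing about stability, and the replicate block changed no call. With 1 array left out, genotype differences of the members reached at most 0.28 in size, in Cav3, and 0 to 27 genes had an unadjusted p under 0.05. Counts of genes without overlap between replicates 2 and 3 and replicates 1 and 4 (1968 above, 2091 below) rose with fewer arrays by construction, to 4887 and 4645 in arrays labelled WT, 4983 and 6636 in arrays labelled Runx1f/f, and 5147 and 4956 within the run 139 to 142. They fell to 430 and 145 with a 1.5-fold minimum. Among the 8949 genes with a mean of at least 5 they were 1311 and 1513. As shares these are 14.6% and 16.9%, higher than the 9.87% and 10.5% of all genes. Among the members, 2 lay above and 0 below with the 1.5-fold minimum, as did 2.16% and 0.727% of all genes. In arrays labelled WT 5 members lay above and 2 below, as did 24.5% and 23.3% of all genes. With 1 array left out, 1 to 2 members lay below, as did 11.7% to 14.2% of all genes. Mymx, Cdh15, Cav3 and Dysf lay above and Cdh2 below in each of the 13 settings that change arrays or scaling. In the settings that only leave out arrays this outcome was fixed in advance, because the full sets of these members do not overlap. Only median centring and repeated quantile normalization could have changed it, and under both the same members lay above and below. No member has a further probe set, so that alternative was not run. Signal over background was not analysed here.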

Other observations

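The division by replicate number can be read in its 2 steps, replicate 2 minus 1 and replicate 3 minus 4, each a mean over both labels. Cav3 gave 1.23 and 1.19, and Mymx 0.40 and 0.41, so these were alike in both steps. Dysf gave 1.09 and 0.71, Mymk 0.32 and 0.11, Cdh15 0.21 and 0.29, Cdh2 -0.17 and -0.29, and Myof -0.01 and -0.17. Each step rests on 4 arrays and was not tested.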
